A study of Homo sapiens with 12 samples.

Results

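The clustered protocadherins are cadherin-type adhesion proteins of the cell surface, encoded in 3 neighbouring gene clusters (alpha, beta and gamma) on chromosome 5. They were taken here as every probe, controls aside, whose gene name in the array files starts with PCDHA, PCDHB, PCDHGA, PCDHGB or PCDHGC and continues with a number or the letter C and a number. This gave 58 probes of 50 genes among 50599 probes in all, with 16 probes of 15 genes in the alpha, 19 probes of 18 genes in the beta and 23 probes of 17 genes in the gamma cluster. Of these probes, 3 in the beta and 1 in the gamma cluster read pseudogenes.

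The cells were Colo320DM, a human colorectal cancer line, and the study lowered TET1 in them, an enzyme that oxidises 5-methylcytosine. There were 6 stable clones, of which 3 carried the negative control plasmid pcDNA6.2-GW/EmGFP-miR-neg and 3 a TET1 knockdown vector that expresses an artificial microRNA. RNA of each clone was measured both mock-treated and exposed for 72 h to 5-aza-dC at 1 µM. This nucleoside analogue, 5-aza-2'-deoxycytidine, blocks DNA methyltransferases. There were thus 4 groups of 3 arrays, 12 one-colour arrays in all. Each array is a single clone, mock and treated arrays of one number are the same clone, and per the study knockdown clones 1 and 2 carried one artificial microRNA against TET1 and clone 3 another. The labels name only a TET1 knockdown vector. The clones were selected in G418 and express GFP from the vector. Below, "treated" means treated with 5-aza-dC.

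In neurons, the clustered protocadherins give each cell its own surface code. Every variable exon has its own promoter, a cell uses only some of these promoters, and the choice involves DNA methylation, CTCF and cohesin. In the alpha and gamma clusters a variable exon, which encodes the extracellular and transmembrane part, is spliced to constant exons shared by the whole cluster, while the beta genes are single exons with no shared part. The C-type members, at the end of the alpha and gamma clusters, are known to be used more evenly and not by random choice.

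Most of these promoters share a conserved sequence element that holds the letters CGCT and is bound by CTCF. RefSeq promoter windows (GRCh38.p14) were matched by symbol for 40 of the 50 genes. The letters CGCT on the strand of the gene lay within 100 bases before the start of 37 of the 40 genes, or 92.5%, against 28.1% of all 35116 RefSeq promoter windows. On the opposite strand (AGCG) they were found there in 8 of the 40, or 20%, against 28.4% of all windows. The match nearest to the start lay 8 to 84 bases before it, with a median of 48. In the 250 bases before the start, either strand held the letters in 95% of the 40 genes and in 64.8% of all windows. AGCG and CGCT can overlap where AGCGCT is present. CpG content was low, with a median of 6 CpGs in 250 bases and a range of 2 to 18, against a median of 11 over all windows. The 4 C-type windows held 13 to 18 CpGs against 2 to 14 in the other 36, ranges that meet at their ends, and had a median G+C content of 61.2% against 36.6%. The 4 genes detected on every array had 4 to 8 CpGs and the 28 detected on no array 2 to 18, so the ranges overlapped.

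The 100 bases before the start are shown for the members that the results below turn on and that have a window, from 5′ to 3′ on the plus strand, which is the strand of the genes. CGCT on this strand is in capitals. The 2 alpha sequences shared a run of 15 bases that holds CGCT (ccacatgatgtCGCT), the 3 beta sequences one of 13 (ggtggCGCTgcag) and the 2 gamma sequences one of 7 (CGCTgtt).
PCDHA5 (chr5:140821513-140821612): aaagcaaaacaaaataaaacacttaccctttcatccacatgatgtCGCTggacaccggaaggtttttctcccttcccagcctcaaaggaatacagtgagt
PCDHA7 (chr5:140834169-140834268): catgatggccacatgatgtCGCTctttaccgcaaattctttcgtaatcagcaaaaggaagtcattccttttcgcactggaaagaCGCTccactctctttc
PCDHB16 (chr5:141182287-141182386): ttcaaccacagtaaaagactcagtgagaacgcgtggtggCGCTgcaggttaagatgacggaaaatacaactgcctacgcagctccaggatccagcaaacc
PCDHB9 (chr5:141187061-141187160): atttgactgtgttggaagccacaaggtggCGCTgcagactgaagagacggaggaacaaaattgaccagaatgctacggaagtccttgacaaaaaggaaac
PCDHB13 (chr5:141213819-141213918): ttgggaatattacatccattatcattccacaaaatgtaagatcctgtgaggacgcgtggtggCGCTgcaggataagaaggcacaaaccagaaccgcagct
PCDHGA2 (chr5:141338660-141338759): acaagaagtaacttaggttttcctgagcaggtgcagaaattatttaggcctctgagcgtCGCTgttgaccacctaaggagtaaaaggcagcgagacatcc
PCDHGA7 (chr5:141382642-141382741): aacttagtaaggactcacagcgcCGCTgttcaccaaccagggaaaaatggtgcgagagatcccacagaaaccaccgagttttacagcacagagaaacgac

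**Figure D1:**
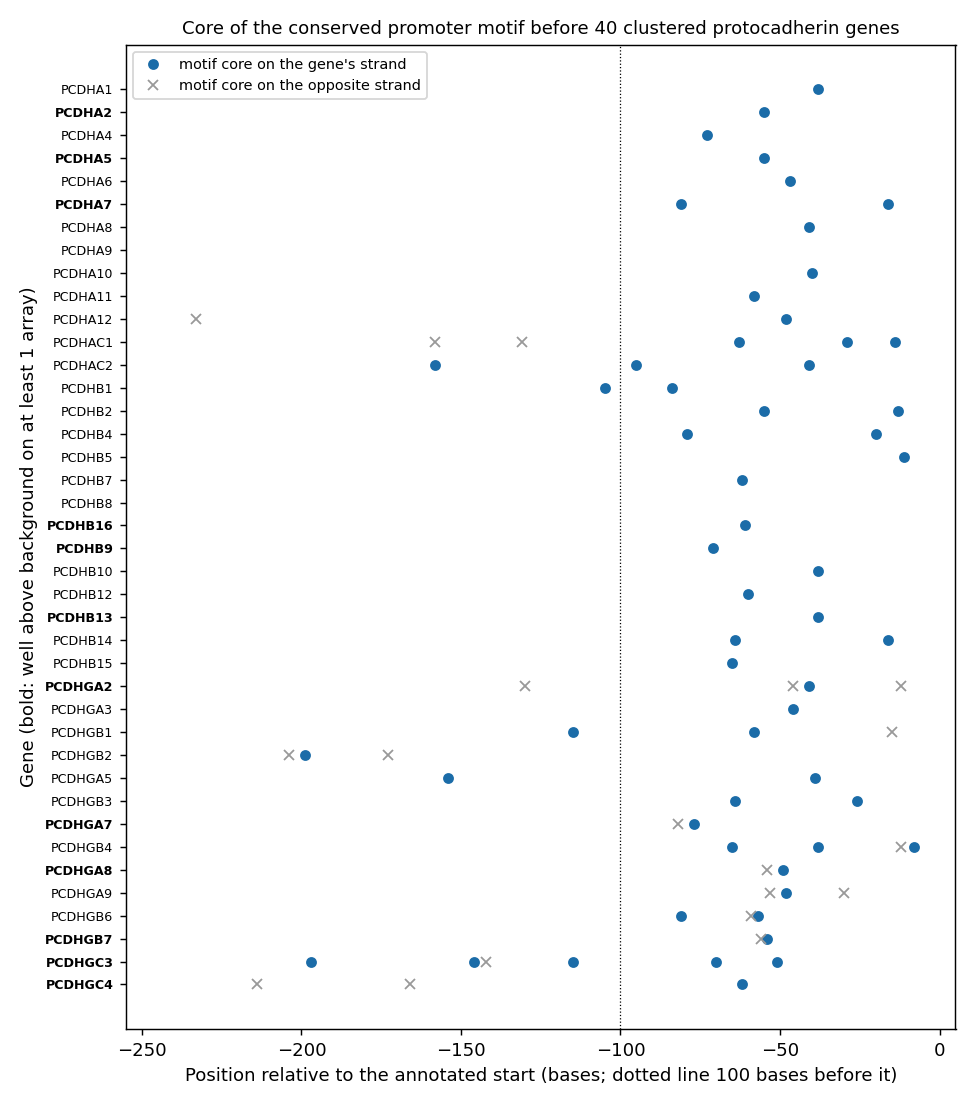
Positions of the letters CGCT, labelled motif core in the figure, for the 40 members with a RefSeq window (y axis, in order along the clusters). The x axis spans the 250 bases before the annotated start. Whether a match lies in the conserved element was not tested. Dots are matches on the strand of the gene and crosses matches on the opposite strand; 37 genes have a dot within 100 bases of the start, and PCDHA9 and PCDHB8 have none in the window.

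Signals are given as log2 intensity relative to the 75th percentile of the same array, so that a negative value lies below that percentile. A probe counts as detected where the scanner software called it well above background, and the lowest signal of any detected probe lay between -4.34 and -3.56 on the 12 arrays. The 75th percentile itself was 241 to 359 intensity units, and 45.7% to 52.9% of all probes were detected on an array. In the mock clones TET1 was 4.48 ± 0.23 in control and 3.56 ± 0.04 in knockdown clones (log2 signal, SD, n = 3), a difference of -0.93 that left 52.6%, with values that did not overlap (exact permutation p = 0.1, the smallest possible with 3 against 3; limma adjusted p = 0.276). Of 7 epithelial markers looked at in this line, KRT8, KRT18, CDX1 and CDX2 were detected on all 12 arrays. EPCAM was detected on 10 of the 12, VIL1 on 1 and CDH1, the gene of E-cadherin, on none. Arrays lay unevenly on 2 slides, and the scan coincided with the slide. Slide 2 held mock control clone 3, all treated controls and treated knockdown clone 2.

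Few of the clustered protocadherins were detected in Colo320DM. Of the 58 probes, 4 (6.9%) were detected on all 12 arrays, against 39% of all probes, and 41 (70.7%) on none, against 35.9% of all probes. By gene, 34 of 50 were not detected on any array, namely 11 of 15 in the alpha, 13 of 18 in the beta and 10 of 17 in the gamma cluster. PCDHGA8 counts as detected here only through a probe in the constant exons shared by the gamma cluster. The number of member probes detected per array was 6, 8 and 9 in mock controls, 6, 6 and 7 in mock knockdown clones, 10, 8 and 9 in treated controls and 9, 4 and 10 in treated knockdown clones. These ranges overlapped between all groups except mock knockdown and treated control clones. The lowest count, in treated knockdown clone 2, came from the array with the lowest 75th percentile.

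**Figure D2:**
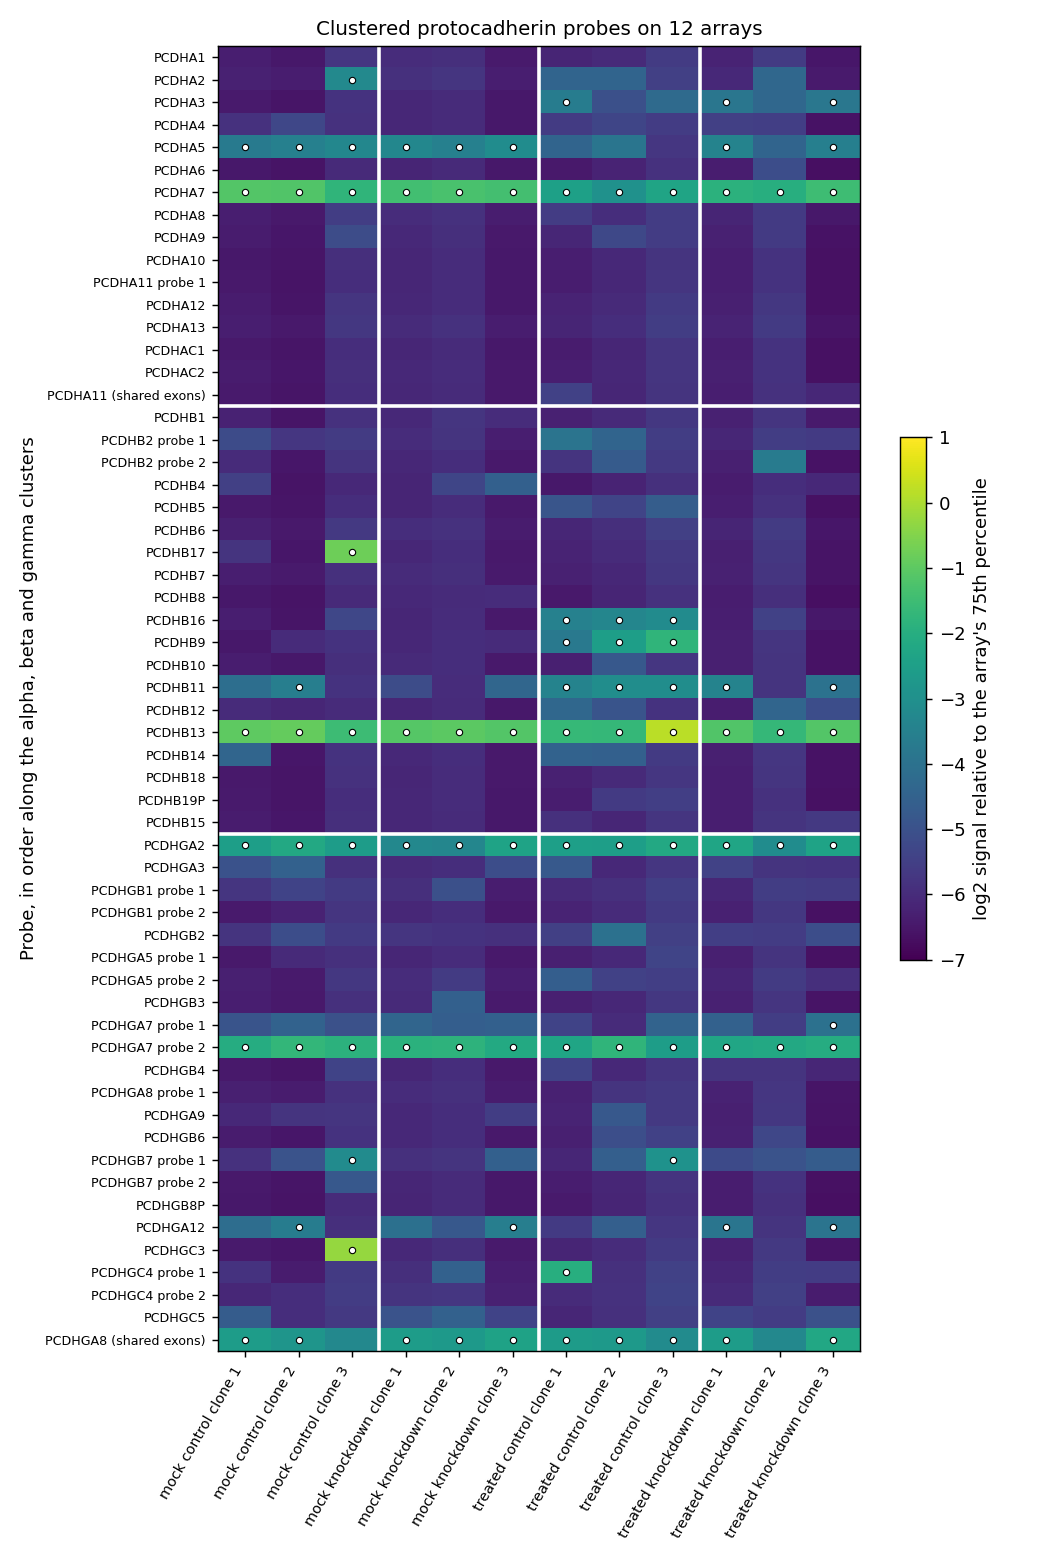
Log2 signal relative to the array's 75th percentile (colour) of the 58 probes (rows, in order along the alpha, beta and gamma clusters) on the 12 arrays (columns). White dots mark probes well above background. PCDHA7, PCDHB13, PCDHGA2 and the second PCDHGA7 probe are marked on every array, and 41 rows have no mark.

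The genes detected on every array were PCDHA7, PCDHB13, PCDHGA2 and PCDHGA7, so that each cluster had at least 1. PCDHB13 (probe at chr5:140595978-140596037 on hg19) had log2 signals of -0.99, -0.88 and -1.51 in mock controls, -1.10, -1.0 and -1.14 in mock knockdown clones, -1.63, -1.67 and 0.19 in treated controls and -1.18, -1.67 and -1.13 in treated knockdown clones. Treated control clone 3 was the highest and the other 11 arrays lay within -1.67 and -0.88. PCDHGA2 (chr5:140720840-140720899) ranged from -2.58 to -2.17 in mock controls, -3.33 to -2.35 in mock knockdown clones, -2.51 to -2.18 in treated controls and -3.12 to -2.30 in treated knockdown clones, and all 4 ranges overlapped. PCDHGA7 (chr5:140764880-140764939) ranged from -2.55 to -1.69 over the 12 arrays. A second PCDHGA7 probe (chr5:140764098-140764157) was detected only on the array of treated knockdown clone 3, at -4.03, and ranged down to -6.01, so the probes of this gene disagreed.

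Which transcripts the probes read limits what a silent alpha or gamma gene means here. Per the file, 36 of the 39 alpha and gamma probes were designed on transcript variant 2 and lie before the shared exons, 1 reads a pseudogene, and 2 were designed on a variant 1 and lie beyond the last variable exon, where the shared constant exons are. The shared-exon probe of the alpha cluster (named PCDHA11, chr5:140390896-140390955) was detected on none of the 12 arrays, with log2 signals of -6.55 to -5.46, although the variant 2 probe of PCDHA7 was detected on all of them. The shared-exon probe of the gamma cluster (named PCDHGA8, chr5:140892394-140892453) was detected on 10 of 12, with -3.26 to -2.21, and the variable-exon probe of PCDHGA8 on none. A shared-exon probe can read transcripts of the whole cluster. Whether the other probes also match variant 1 transcripts was not tested.

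The C-type members had no signal shared by clones. PCDHAC1 (-6.65 to -5.77) and PCDHAC2 (-6.63 to -5.77) were detected on no array, and neither was PCDHGC5 (-6.15 to -4.52). PCDHGC3 was detected on 1 array, mock control clone 3, with -0.26 against -6.58 to -5.64 on the other 11, or 229 against 3.55 to 5.28 intensity units. PCDHGC4 was detected on 1 array by 1 of its 2 probes, in treated control clone 1, at -2.0 against -6.40 to -4.52 on the others, while its second probe was at -6.00 there.

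Signals seen on 1 array only made up 5 of the 58 probes (8.62%), against 7.58% of all probes. The pseudogene PCDHB17 was seen, like PCDHGC3, only in mock control clone 3 (-0.77, against -6.59 to -5.66 elsewhere), as was PCDHA2 (-3.23, against -6.41 to -4.32). One of the PCDHGB7 probes was detected in control clone 3 both mock (-3.14) and treated (-2.93) and on no other array. The same clone after treatment showed no PCDHGC3 (-5.64), PCDHB17 (-5.66) or PCDHA2 signal above background. Mock control clone 3 held 3 of the 5 single-array members, and 303 of all probes were detected on that array alone, against 159 to 509 on the other arrays. Each of these probes has 1 spot per array, and none of these spots was marked as an outlier.

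PCDHB1 has 10 spots per array and shows how 1 spot can differ from its replicates. Of its 120 spots, 3 were well above background, with log2 signals of -2.54 to -2.23, in mock control clone 3, mock knockdown clone 1 and treated knockdown clone 2. The scanner software marked all 3 as outliers, and the median of the 10 spots was -5.85, -6.09 and -5.75 on these arrays. No array had more than 1 such spot, and PCDHB1 counts as not detected. Of the spots of probes with 1 spot, 206 of 596364 were marked as outliers, against 3732 of 108240 spots of probes with several, so most members have no replicate spot to compare with. Whether the single-array signals are of this kind was not tested.

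**Figure D3:**
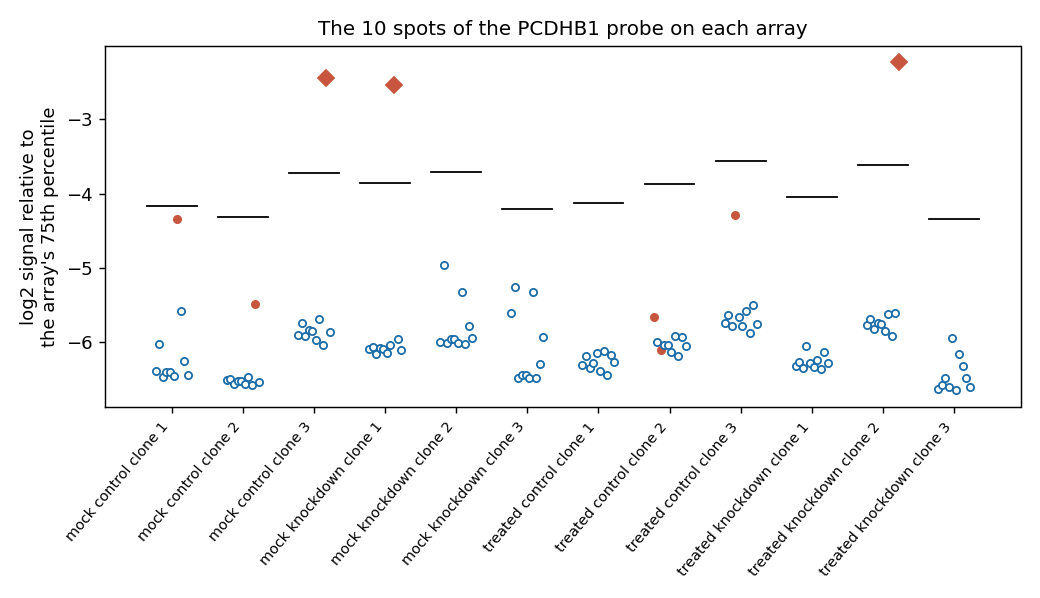
Log2 signal relative to the array's 75th percentile (y axis) of the 10 PCDHB1 spots on each of 12 arrays (x axis). Diamonds are spots well above background, red symbols spots marked as outliers, and black lines the lowest signal of any detected probe on that array; 3 arrays have 1 spot well above background each, and the medians of the 10 spots lie between -6.53 and -5.70.

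The question of the treatment was whether demethylation raises these genes. A probe was tested where it was detected on at least 3 arrays of the fit, with limma and Benjamini-Hochberg adjustment over all probes tested, and called at an adjusted p under 0.05. In control clones 2 of 9 members tested rose, PCDHB9 and PCDHB16, and none fell, against 5.2% of 24631 probes called. Over all clones 4 of 11 members were called, with PCDHA3, PCDHB9 and PCDHB16 higher and PCDHA7 lower, against 13.2% of 27281 probes. In knockdown clones 0 of 7 members were called, against 2.05% of 25385 probes, and 0 of 7 had an unadjusted p under 0.05, against 9.15% of all probes. PCDHA3, PCDHB9 and PCDHB16 were detected on no mock array and passed the filter only through treated arrays, where they are high, so nothing is read from these counts against the shares of all probes. The median log2 change of the members tested was 0.08 in control clones, -0.24 in knockdown clones and -0.03 over all clones, against -0.02, -0.09 and -0.05 over all probes tested, and it was the same with undetected groups set to their bound.

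PCDHB9 (chr5:140570085-140570144) was detected in all 3 treated controls and nowhere else. Its log2 signals were -6.47, -6.03 and -5.83 in mock controls and -3.76, -2.51 and -1.75 in the same clones treated. In knockdown clones they were -6.11, -5.97 and -6.03 in mock and -6.30, -5.75 and -6.61 in treated clones. All 3 treated controls lay above the other 9 arrays. The fitted change in control clones was 3.44 (SE 0.51, limma adjusted p = 0.0165), and since mock controls were not above background, the measured rise was at least 2.63-fold, set against the detection limit of those arrays. Over all clones the change was 1.63 (SE 0.31, adjusted p = 0.007).

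PCDHB16 (chr5:140565335-140565394), the member next to PCDHB9 on the map of the array's probes, had the same detection pattern. It was at -6.32, -6.54 and -5.29 in mock controls and at -3.48, -3.32 and -3.16 in the same clones treated. In knockdown clones it was at -6.14, -5.99 and -6.47 in mock and at -6.33, -5.45 and -6.47 in treated clones. Again the 3 treated controls lay above all other arrays. The fitted change in control clones was 2.73 (SE 0.34, limma adjusted p = 0.00929), at least 1.68-fold, and over all clones it was 1.42 (SE 0.25, adjusted p = 0.0048).

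The member probes next to these did not share this. PCDHB8, before PCDHB16, and PCDHB10, after PCDHB9, were detected on no array. PCDHB11 (chr5:140581576-140581635) was detected in 1 mock control, all treated controls, no mock knockdown and 2 treated knockdown clones. Its values were -4.12, -3.58 and -5.82 in mock controls and -3.42, -3.06 and -3.09 after treatment, a change of 1.32 (SE 0.56, limma adjusted p = 0.196), and with the slide as a block the change was 2.63 (adjusted p = 0.0233). That value sets the treated controls against mock control clone 3 alone, the lowest of the mock controls. PCDHB5 was not above background on any array, but its signal was -4.88, -5.35 and -4.66 in treated controls and -6.64 to -5.85 on the other 9 arrays.

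PCDHA3 (chr5:140183149-140183208) was the member called over all clones that was higher after treatment in both clone types. Its log2 signals were -6.42, -6.54 and -5.82 in mock controls, -3.65, -5.06 and -4.22 in treated controls, -6.11, -6.01 and -6.47 in mock and -3.86, -4.32 and -3.82 in treated knockdown clones. All 6 treated arrays lay above all 6 mock arrays, and 3 of the 6 were above background. The fitted change was 2.07 (SE 0.24, limma adjusted p = 0.000325), and no fold can be given, because the treated mean did not exceed the detection limit of the mock arrays. In knockdown clones alone PCDHA3 was detected on too few arrays to be tested, and it was called there with no filter on dim probes (change 2.20, adjusted p = 0.0107).

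PCDHA7 (chr5:140216279-140216338) was lower after treatment in each of the 6 clones. Its log2 signals went from -1.13, -1.18 and -1.77 to -2.44, -2.95 and -2.33 in control clones and from -1.44, -1.28 and -1.39 to -1.86, -1.98 and -1.48 in knockdown clones, and mock and treated values did not overlap within either clone type. Over all clones the change was -0.81 (SE 0.17, limma adjusted p = 0.0126), which left 57.1%. In control clones alone it was -1.21 (SE 0.26, adjusted p = 0.0553) and in knockdown clones -0.40 (SE 0.21, adjusted p = 0.64), neither past the threshold. The call over all clones was lost without control clone 1 (-0.78, adjusted p = 0.0648), control clone 2 (-0.67, adjusted p = 0.0814) or knockdown clone 1 (-0.80, adjusted p = 0.0592). PCDHA5 (chr5:140203700-140203759), the other alpha gene detected in every mock clone, was at -3.72, -3.51 and -3.28 in mock and -4.41, -3.89 and -5.75 in treated controls. In knockdown clones it was at -3.29, -3.52 and -3.10 in mock and -3.43, -4.42 and -3.56 in treated clones. It was detected on all 6 mock arrays, in no treated control and in 2 treated knockdown clones, and its change over all clones was -0.84 (SE 0.30, adjusted p = 0.0916).

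Slide and treatment were partly confounded. Among the controls on slide 2, the changes from mock clone 3 to the mean of the 3 treated controls were 3.16 for PCDHB9, 1.97 for PCDHB16, 1.51 for PCDHA3 and -0.80 for PCDHA7. With the slide as a block in control clones, where mock control clone 3 is again the only mock array compared, PCDHB16 was still called (change 1.97, adjusted p = 0.022) and PCDHB9 was not (3.16, adjusted p = 0.134), and with the clone and the slide both as blocks 0 of 9 members were called. The calls in control clones rest on few arrays: with probes tested from 2 arrays on, a setting chosen after seeing the data, leaving out control clone 1 left PCDHB9 alone, leaving out clone 2 left 0, and leaving out clone 3 gave 4, with PCDHA7 (-1.54, adjusted p = 0.0236) and PCDHB13 (-0.72, adjusted p = 0.0397) now lower. Over all clones, the slide as a block left PCDHA3 and PCDHB16 called, lost PCDHB9 (1.34, adjusted p = 0.0536) and PCDHA7 (-0.57, adjusted p = 0.0608) and added PCDHB11 (2.05, adjusted p = 0.00529). In control clones the methods' t-test called 0 members. Normexp background correction with quantile normalization also called 0 in control clones, with changes of 0.63 for PCDHB9 and 0.43 for PCDHB16.

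**Figure D4:**
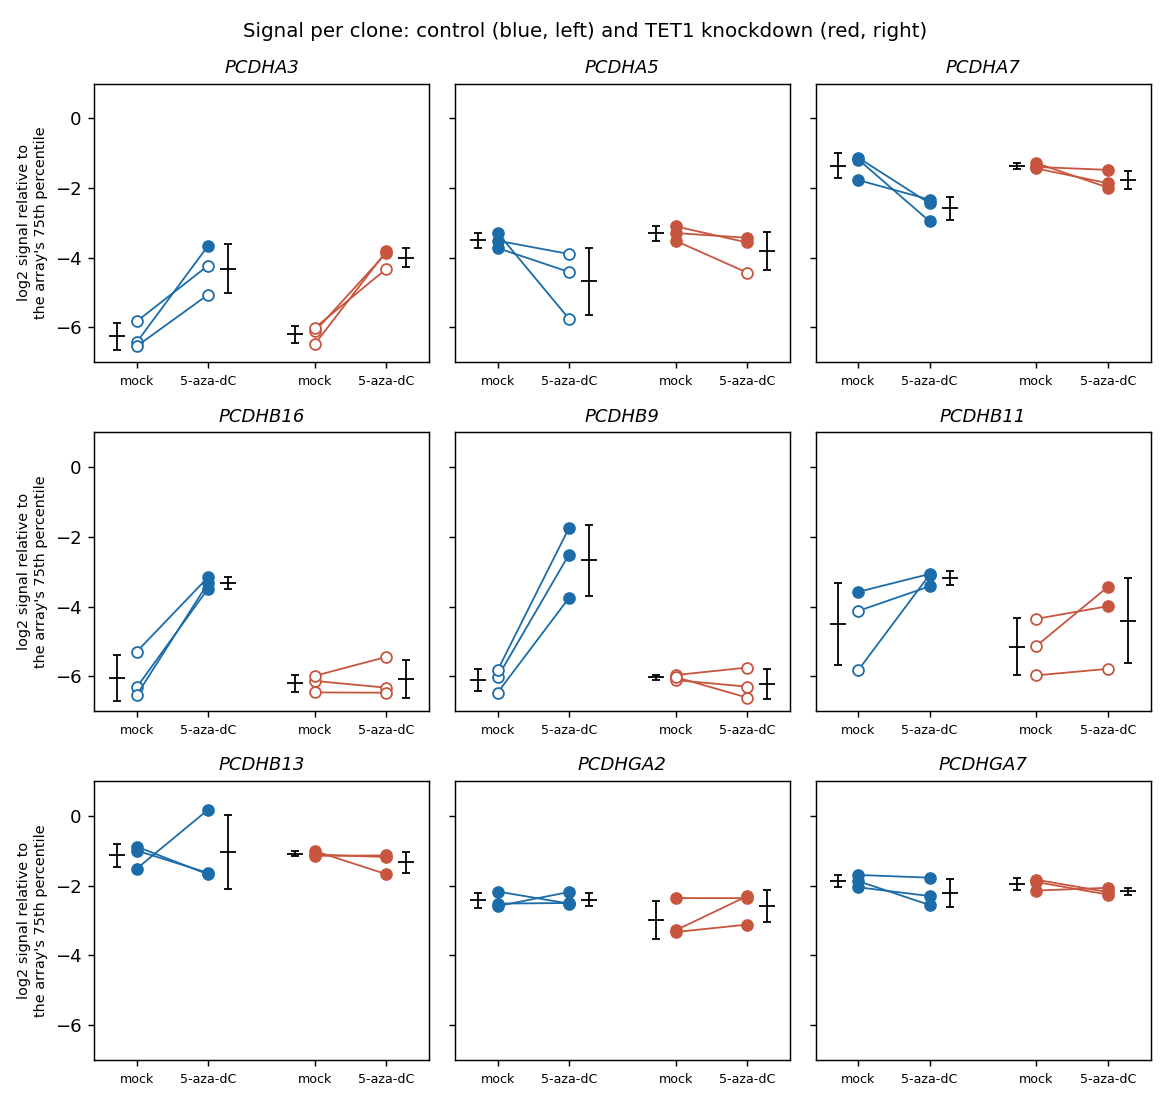
Log2 signal relative to the array's 75th percentile (y axis) in mock and 5-aza-dC-treated cells (x axis) of control (blue) and TET1 knockdown (red) clones for 9 members. Lines join arrays of one clone, filled circles are well above background, and black bars are the group mean ± SD of 3 clones. The blue treated points of PCDHB9 and PCDHB16 are filled and every other point of these genes is open.

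Between clone types, none of the tested members was called. In mock clones 0 of 6 members were called and 0 had an unadjusted p under 0.05, against 0.137% of 24750 probes called and 11.2% with an unadjusted p under 0.05, with changes (knockdown minus control) of -0.57 to 0.35 and a median of 0.01, against 0.04 over all probes. In treated clones 0 of 9 were called, against 0.104% of 24992 probes, and 3 had an unadjusted p under 0.05, against 19.3% of all probes, with a median of -0.20 against -0.01 over all probes. These were PCDHB16 (-2.76, SE 0.31, unadjusted p = 6.4e-05, adjusted p = 0.0566 by limma), PCDHB9 (-3.55, SE 0.52, unadjusted p = 0.000322, adjusted p = 0.0936) and PCDHA7 (0.80, SE 0.26, unadjusted p = 0.0182, adjusted p = 0.214). In all 3 the treated groups did not overlap, and neither did those of PCDHB11 (-1.22, SE 0.58, limma adjusted p = 0.296). The share of all probes whose treated groups do not overlap was not counted, so nothing is read from this. PCDHB16 and PCDHB9 were not above background in treated knockdown clones, so the fitted values are no bound there. The measured levels were at least 1.60-fold and at least 2.51-fold lower than in treated controls. Both genes passed the filter only through the treated controls, where they are high. Nothing is therefore read from the counts in treated clones against the shares of all probes. Without knockdown clone 2, PCDHB16 (adjusted p = 0.00176), PCDHB9 (0.00947) and PCDHA7 (0.0446) were called, but then all treated controls lie on slide 2 and both treated knockdown clones on slide 1, and clone type and slide cannot be told apart. With all 12 arrays in 1 fit PCDHB9 (limma adjusted p = 0.00793) and PCDHB16 (0.0102) were called.

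The difference of the responses was tested as the interaction of clone type and treatment. There, 0 of 11 members were called and 3 had an unadjusted p under 0.05, against 0.0367% of 27281 probes called and 2.46% with an unadjusted p under 0.05. The median over the members was 0.13, against -0.02 over all probes. PCDHB9 and PCDHB16 were at background in 3 of the 4 groups, so the sizes of their fitted responses and differences are not measured folds. They passed the filter only through the treated controls, where they are high. Nothing is therefore read from the counts here against the shares of all probes. PCDHB9 changed by 2.71, 3.52 and 4.08 with treatment in control clones and by -0.19, 0.21 and -0.59 in knockdown clones. The responses did not overlap and differed by -3.62 (SE 0.61, limma unadjusted p = 0.000129, adjusted p = 0.239; exact permutation p = 0.1, 0.3 adjusted over 6 genes). PCDHB16 changed by 2.83, 3.22 and 2.14 in control and by -0.19, 0.54 and -0.01 in knockdown clones, a difference of -2.62 (SE 0.50, limma unadjusted p = 0.000337, adjusted p = 0.46; exact permutation p = 0.1, 0.3 adjusted). PCDHA3 changed by 2.77, 1.48 and 1.60 in control and by 2.25, 1.69 and 2.66 in knockdown clones, so its responses overlapped (difference 0.25, exact permutation p = 0.7). The 6 genes of the exact test were PCDHB9, PCDHB16, PCDHA3, PCDHB11, PCDHA7 and PCDHA5. They were picked by hand from the 11 members tested and include every member called after treatment. The adjustment over them does not correct for this choice. With the slide as a block, the interaction was called for PCDHB16 (-2.27, limma adjusted p = 0.011). On slide 2, PCDHB9 was at -5.75 and PCDHB16 at -5.45 in treated knockdown clone 2, below -3.76 to -1.75 and -3.48 to -3.16 in the treated controls of that slide.

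**Figure D5:**
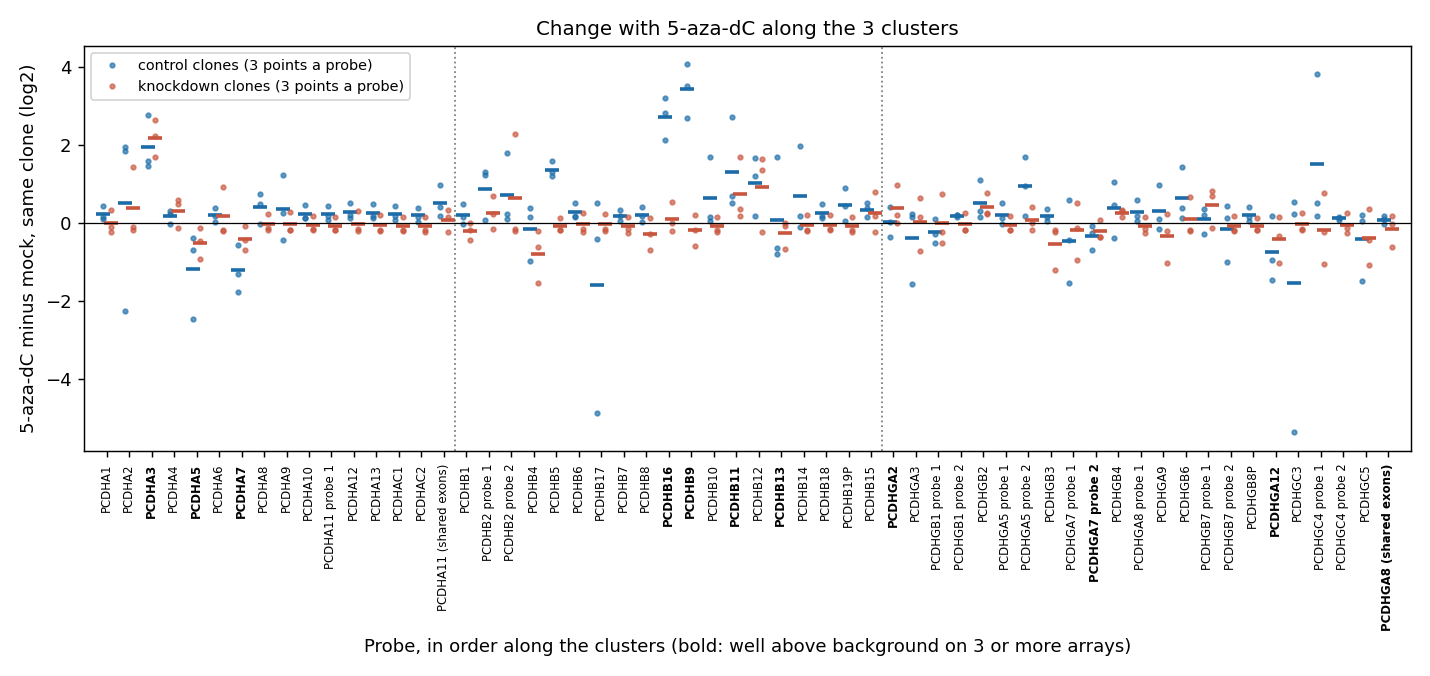
Change in log2 signal from mock to 5-aza-dC in the same clone (y axis) for the 58 probes in order along the clusters (x axis). Points are the 3 control (blue) and 3 knockdown (red) clones, dashes their means, and bold names probes detected on 3 or more arrays. The 3 control points of PCDHB16 and PCDHB9 stand at 2.14 to 4.08, and the lowest points belong to PCDHGC3 and PCDHB17 of control clone 3, whose mock signal was seen on that array alone.

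Some neuronal and neuroendocrine markers were called in the same comparisons. Of 4 neuron markers 3 were detected on all 12 arrays and MAP2 on none, and the summed signal of the 4, in multiples of the 75th percentile, was 33.4 to 52.8 in mock controls, 5.26 to 23.3 in mock knockdown clones, 53.1 to 69.7 in treated controls and 5.44 to 28.5 in treated knockdown clones. TUBB3, a neuronal tubulin, was called in control clones after treatment (2.45, SE 0.22, limma adjusted p = 0.00305) and between treated clones (-3.83, SE 0.38, adjusted p = 0.0409). The others of that list were not called, with changes of 0.05 (SNAP25) and -0.44 (RBFOX3) in control clones after treatment and -2.49 and 0.52 between treated clones. Of the neuroendocrine markers INSM1 was detected on no array, and the summed signal of the list was 0.396 to 0.628 in mock controls, 0.148 to 0.918 in mock knockdown clones, 4.28 to 8.34 in treated controls and 2.62 to 3.5 in treated knockdown clones. CHGA, which encodes chromogranin A, was called in control clones after treatment (6.01, SE 1.04, adjusted p = 0.0289) and missed the threshold between treated clones (-5.35, adjusted p = 0.0595). ENO2, a neuronal enolase, was called in control clones as well (3.51, adjusted p = 0.0292). In knockdown clones its mean signal also rose, from -1.59 to 1.55, without a call. Of 3 leukocyte markers PTPRC was detected on all 12 arrays, and of 4 fibroblast markers COL1A1 was. After treatment COL1A1 rose in control clones (1.93, adjusted p = 0.0165), and of the epithelial list EPCAM rose in knockdown clones (4.21, adjusted p = 0.0157). Neither was called in the other clone type, where mean signals rose as well. COL1A1 went from -2.40 to -0.35 in knockdown clones and EPCAM from -2.18 to 1.13 in control clones. The part of these markers in the protocadherin values was not tested, and in bulk RNA fewer expressing cells and less RNA per cell cannot be told apart.

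Genes known or proposed to act on these promoters were expressed. Of 23 such genes, 22 were detected on all 12 arrays, among them CTCF, the cohesin subunits RAD21, SMC1A, SMC3, STAG1 and STAG2, and the methyltransferases DNMT1, DNMT3A and DNMT3B. TET3 was the exception, with 3 arrays. After treatment 1 of 22 was called in control clones, against 5.2% of all probes, DNMT3B (1.27, SE 0.18, limma adjusted p = 0.0137), and 0 of 22 in knockdown clones. Over all clones 4 of 23 were called, near the 13.2% of all probes, with DNMT3B higher (1.31, adjusted p = 0.00117) and CTCF (-0.52, adjusted p = 0.0347), SMC3 (-0.44, adjusted p = 0.0313) and STAG1 (-0.69, adjusted p = 0.0159) lower. Between clone types 0 were called in mock or treated clones, TET1 included. The median change of this list over all clones was -0.18, against -0.05 over all probes.

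Proteins that act with clustered protocadherins, among them the protease ADAM10 that cuts them, the kinases PTK2 and PTK2B and the WAVE complex, were detected on all 12 arrays in 10 of 11 cases, with CYFIP2 on none. PTK2 was the 1 of 10 called over all clones (-0.55, SE 0.16, limma adjusted p = 0.0475), near the 13.2% of all probes called there. In the other comparisons 0 were called.

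Of relatives outside the clusters, 9 of 17 non-clustered protocadherins and other large cadherins were detected on all 12 arrays and 3 on none. PCDH20, a non-clustered protocadherin, was detected on no mock and on every treated array. It was at -5.92 ± 1.06 and -1.93 ± 0.46 in mock and treated controls and at -6.24 ± 0.23 and -2.90 ± 0.41 in mock and treated knockdown clones (log2 signal, SD, n = 3). The measured rise in control clones was at least 4.41-fold (limma adjusted p = 0.0129). For knockdown clones the bound was at least 2.03-fold (adjusted p = 0.00163). CELSR3, a cadherin of planar polarity, fell by 1.32 on the log2 scale in control clones (SE 0.23, adjusted p = 0.0298) and by 1.18 over all clones (SE 0.16, adjusted p = 0.000959), and PCDH19 fell by 1.38 over all clones (SE 0.35, adjusted p = 0.0292). Of this list, 0 were called between clone types or in the interaction.

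Genes around the clusters were read too. Inside them lie 4 other probes, of which the one for TAF7, a subunit of the general factor TFIID whose gene stands between the beta and gamma clusters, was detected on all 12 arrays (mean log2 signal 4.13) and SLC25A2, beside it, on none. Of the 10 nearest named probes before the clusters 6 were detected on all 12 arrays and 1 on none, and of the 10 after them 7 and 0. None of these neighbours was called in any of the 6 comparisons. TAF7 changed by 0.24 in control clones with treatment (adjusted p = 0.413) and by -0.43 between treated clone types (adjusted p = 0.276).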

How the data were processed

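Total RNA of the 12 samples was labelled with 1 dye and hybridised to human expression arrays, SurePrint G3 8x60K v2. The deposited values are spot intensities that the authors extracted with Agilent Feature Extraction 10.7 (10.7.3.1 in the file headers), background-corrected and detrended but not normalized between arrays. Probe names, transcript descriptions and hg19 positions are those of the files. The series' value table held the same signals rounded (largest difference 0.497%).

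Outlier-marked and control spots were dropped, the remaining spots of one probe were averaged, and log2 intensity was taken minus the array's 75th percentile over 50599 probes. A probe was detected where at least 50% of its spots were well above background and tested where detected on at least 3 arrays of the fit. limma 3.58.1 (lmFit, eBayes) in R 4.3.3 with data.table (version 1.17.8) was fitted to all probes tested, with Benjamini-Hochberg adjustment over them. The fits were tested on simulated data. "At least" folds set the brighter mean against, per array, the higher of the lowest detected signal and the probe's own. Exact permutation tests were two-sided. Sequences came from RefSeq tables (GRCh38.p14). Positions were not converted between builds.

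Groups came from the labels. Same-numbered mock and treated arrays are one clone per the labels, and their deviations from the group means correlated by 0.213 to 0.524, so the clone pairs them. Across clone types a shared number marks no shared clone (-0.0291 to 0.0875). Values from the same clone were otherwise treated as separate samples in the fit over all clones, with the clone as a block among the alternatives. P-values measure the spread between clones, and the number of arrays limits the precision.

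Members called in a comparison, the 2 brightest per cluster and the C-type members are named with values, the others by ranges. PCDHB1, PCDHB5, PCDHGA8, the single-array members and the probes beside PCDHB9 and PCDHB16 were named after their values were seen. Of the lists (promoter regulators, partners, non-clustered cadherins, and epithelial, neuroendocrine, leukocyte, fibroblast and neuron markers), TET1 and the genes called are named. The members and lists were chosen with earlier results of these data known. Alternatives were quantile normalization, normexp with an offset of 50, the array median as scale, other filters, outlier spots kept, the series table, slide and clone as blocks, all arrays in 1 fit, the methods' t-test and each clone left out. Results for some genes of these lists are not reported here.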

Additional observations from a re-analysis of the deposited data

Results flagged for a closer look

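For 3 members the change with 5-aza-dC differed between control and knockdown clones at an unadjusted p under 0.05 in limma's interaction test, and none passed after adjustment over all probes. For PCDHB9 the log2 change in knockdown clones minus that in control clones was -3.62 (unadjusted p = 0.000129, adjusted p = 0.239), and the probe was above background in the 3 treated control clones and on no other array. PCDHB16 differed by -2.62 (unadjusted p = 0.000337, adjusted p = 0.46), with responses that did not overlap between clone types. Both genes passed the filter only through the treated controls, so nothing is read from the count of 3. PCDHA7 differed by 0.81 (unadjusted p = 0.0371, adjusted p = 1), and its responses overlapped.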

How the results depend on the processing

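No change called in the fits given first turned its sign. The change of PCDHB13 in control clones, 0.08 and not called there, did. Without control clone 3 it was called at -0.72 (limma adjusted p = 0.0381). The median change of the members tested, which has no test, also turned its sign. It was 0.08 and ranged from -0.16 to 0.44 in control clones, and was -0.03 and ranged from -0.27 to 0.42 over all clones. For the interaction it was 0.13 and ranged from -0.38 to 0.25. Between clone types it was 0.01 and ranged from -0.15 to 0.12 in mock clones, and was -0.20 and ranged from -0.63 to 0.07 in treated clones. For 5-aza-dC in control clones, where 2 members were called, 0 were called with normexp and quantile normalization, with detection required on every array (which left 4 members to test), with the replicate block (clone) and the slide together, and with the methods' t-test after adjustment. Leaving out 1 clone gave 0 to 2 members, and PCDHB9 and PCDHB16 then had too few arrays to be tested. The 2 called, without clone 3, were PCDHA7 and PCDHB13. With probes tested from 2 arrays on, a setting chosen after seeing the data, leaving out 1 clone gave 0 to 4. In knockdown clones 1 member, PCDHA3, was called with no filter on dim probes, and leaving out 1 clone with that added setting gave 0 to 1 (PCDHA3 without clone 2, change 2.45, adjusted p = 0.0146). Over all clones, where 4 were called, 2 were called with normexp and 1 with detection on every array, and leaving out 1 clone gave 0 to 4. With the added setting PCDHA3, PCDHB9 and PCDHB16 were called whichever of the 6 clones was left out. All 3 were detected on no mock array and passed the filter only through treated arrays, where they are high. Nothing is therefore read from these repeated calls. PCDHB9 and PCDHB16 changed by means of 3.44 and 2.73 in control clones, against -0.19 and 0.11 in knockdown clones. Between treated clone types, the slide as a block left treated knockdown clone 2 as the only knockdown array compared, with a difference of -2.13 for PCDHB16. In the same comparison 1 member (PCDHB16) was called with quantile normalization or the array median, and 2 with all 12 arrays in 1 fit. Leaving out 1 clone gave 0 to 3 there and 0 to 4 with the added setting, with PCDHGA12 the fourth (1.41, adjusted p = 0.0439, without knockdown clone 2). The interaction gave 1 member with the slide as a block. In mock clones 0 were called in 23 of 23 alternatives.

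The replicate block (clone) alone changed no call: in control clones it called PCDHB9 (adjusted p = 0.0107) and PCDHB16 (0.0129), and over all clones 4 members. With the array median as scale the median change over all clones moved from -0.03 to -0.27 among the members tested, and PCDHA5 (-1.08, adjusted p = 0.0319) and PCDHGA7 (-0.51, adjusted p = 0.0488) were called lower too. In control clones PCDHA7 was called with that scale (-1.43, adjusted p = 0.0217), with quantile normalization (-1.33, 0.0368) and with all 12 arrays in 1 fit (0.0131). Most members lay at background, where changes below the detection limit could not be measured.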
